A study of Homo sapiens with 12 samples.

Results

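The SLC25 family holds carriers that mostly move metabolites across the inner mitochondrial membrane, and its genes were examined for sites bound by an antibody against 1-methylguanosine (m1G). Members were all protein-coding genes of the RefSeq table (GRCh38.p14) whose symbol starts with SLC25A, which gave 48 of 20050 protein-coding genes. The material was polyadenylated RNA of PANC-1, a cell line of human pancreatic ductal adenocarcinoma, broken into fragments of 100 to 200 nt. The 12 libraries of experiment 2 formed 4 groups of 3: input RNA and m1G-precipitated RNA of WT control cells, and input RNA and m1G-precipitated RNA of TRMT5 KD cells. All cells were transfected with siRNA, and in the KD groups TRMT5, a tRNA methyltransferase that makes m1G, was depleted for 4 days. Neither the origin of the replicates (separate cultures or not) nor the siRNA of the controls is stated in the labels.

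The data are 2 peak lists of the whole series, and hold no value for a single library, and no column is labelled as a contrast of knockdown and control. Neither the effect of the depletion on these genes nor the spread between replicates was therefore analysed here, and how deeply the libraries were sequenced is unknown. The MetDiff list gives exonic peaks with a strand, a false discovery rate (FDR) and a fold, read here as precipitated over input from its place in a list without a header; if it were another contrast, each fold below would mean something else. The MACS2 list gives single-base summits with a value read as −log10 q. All folds, FDRs and −log10 q values are the authors' and describe peaks within their own list. A peak was counted for a gene that was the only gene span at that place.

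SLC25 carriers are built from a repeated structural module, and most exchange or import a small set of related solutes: ADP for ATP, phosphate, citrate and other carboxylates, amino acids, cofactors, glutathione or iron. Nuclear genes encode them, and the proteins are made in the cytosol. Most mitochondrial members are inserted into the inner membrane through the TOM and TIM22 complexes. In cancer cells the family links the citrate cycle and oxidative phosphorylation in the matrix to lipid, nucleotide and glutathione metabolism in the cytosol.

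Sequence was at hand only for gene starts, and is printed for 3 members whose peak or summit reached into a RefSeq promoter window (GRCh38.p14, 250 bases before to 50 after a gene's start); for SLC25A39 the window held 47 of the 299 bases of the peak. The other peaks have no sequence here, so these stretches do not stand for the family's sites in general. Each is written 5′ to 3′ as in the RNA's sense strand, with T for U and with guanines, the base the antibody is directed against in its methylated form, in capitals.
SLC25A39 (chr17:44324791-44324820, minus strand, first 30 bases of the peak with the highest fold of the family): GtcGGcctaGGtGcGctGcGaGcGcGcGcG
SLC25A11 (chr17:4939975-4940004, minus strand, first 30 bases of its peak with the highest fold): GcGcGccctcGctctGttGcGcGcGcGGtG
SLC25A29 (chr14:100306410-100306438, minus strand, 29 bases with the summit at base 15): tcaGctGccGccGaGGGaccaGcGcGGGt
They lie at bases 4 to 33, 43 to 72 and 7 to 35 of the gene spans and hold 14, 12 and 12 guanines. The SLC25A11 stretch was read from the window of RNF167, and none of the 3 is exactly the first 30 bases of its span. The median over the first 30 bases of 15843 protein-coding genes with such a window was 10 guanines. Of these genes, 16.1% held at least 14 guanines and 34.0% at least 12. Starts rich in guanine were thus common among all genes, and which guanine, if any, was methylated is not given by the lists.

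Of the 48 carriers, 14 had a MetDiff peak (29.2%), where 18.4% of all protein-coding genes had one. A MACS2 summit was present in 7 (14.6%), against 8.25% of all protein-coding genes. The same 7 genes had both, against 6.96% of all, so 0 carriers had a summit without a MetDiff peak. Over all protein-coding genes, 1395 of the 1655 with a summit had both, so a summit without a MetDiff peak was uncommon in general. The lists may rest on the same libraries, and the background includes genes that PANC-1 cells do not express, so no test was made of these shares. The remaining 34 carriers had neither kind of peak. In total 29 MetDiff peaks and 9 summits belonged to carriers.

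By transported substrate, peaks were found in 8 of the 12 classes. Carriers of di- and tricarboxylates (3 of 4 genes), of ADP and ATP (3 of 4), of ATP-Mg and phosphate (2 of 4) and of phosphate (1 of 1) together had MetDiff peaks in 9 of 13 genes and summits in 4. The other 8 classes had MetDiff peaks in 5 of 35 genes and summits in 3. This pooling was chosen after the values were seen, and the classes are too small for more than a description. Among the 9 amino acid carriers SLC25A29 had a peak, and among the 8 carriers of cofactors none had one in either list. Over all protein-coding genes the shares were 18.4% for MetDiff peaks and 8.25% for summits. The 5 of 35 and 3 of 35 genes of the other classes lay near these shares. At such shares a class of 8 or 9 genes may hold few peaks or none.

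**Figure D1:**
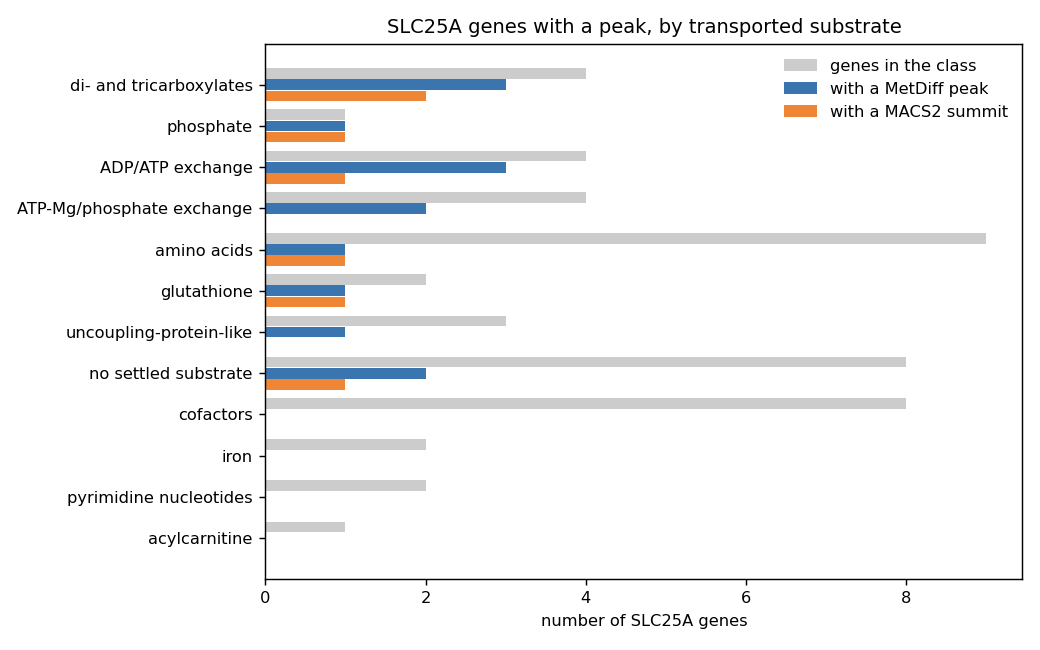
Number of SLC25A genes in each substrate class (grey), with a MetDiff peak (blue) and with a MACS2 summit (orange). The classes of carboxylates, phosphate and adenine nucleotides, grouped after the values were seen, hold 9 of the 14 genes with a MetDiff peak. The bars of cofactors, iron, pyrimidine nucleotides and acylcarnitine show no peak.

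The folds of the carrier peaks were centred near the middle of the list. They ranged from 1.69 to 13 with a median of 4.4 over the 29 peaks, beside 4.46 over all 7990 peaks with a sole protein-coding gene. Taken per gene, the median of the gene medians was 5.18 for the 14 carriers and 4.69 for all 3687 genes with a peak. The median of the highest fold per gene was 8.14 for the carriers and 6.17 for all, and 9 of 14 carriers lay above the latter. The 14 carriers fell into those with a highest fold of 2.51 to 2.90 (SLC25A6, SLC25A1, SLC25A5 and SLC25A35) and those at 5.08 or more. Of the 9 summits, 3 exceeded the median of 14 over all 3049 summits with a sole protein-coding gene.

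**Figure D2:**
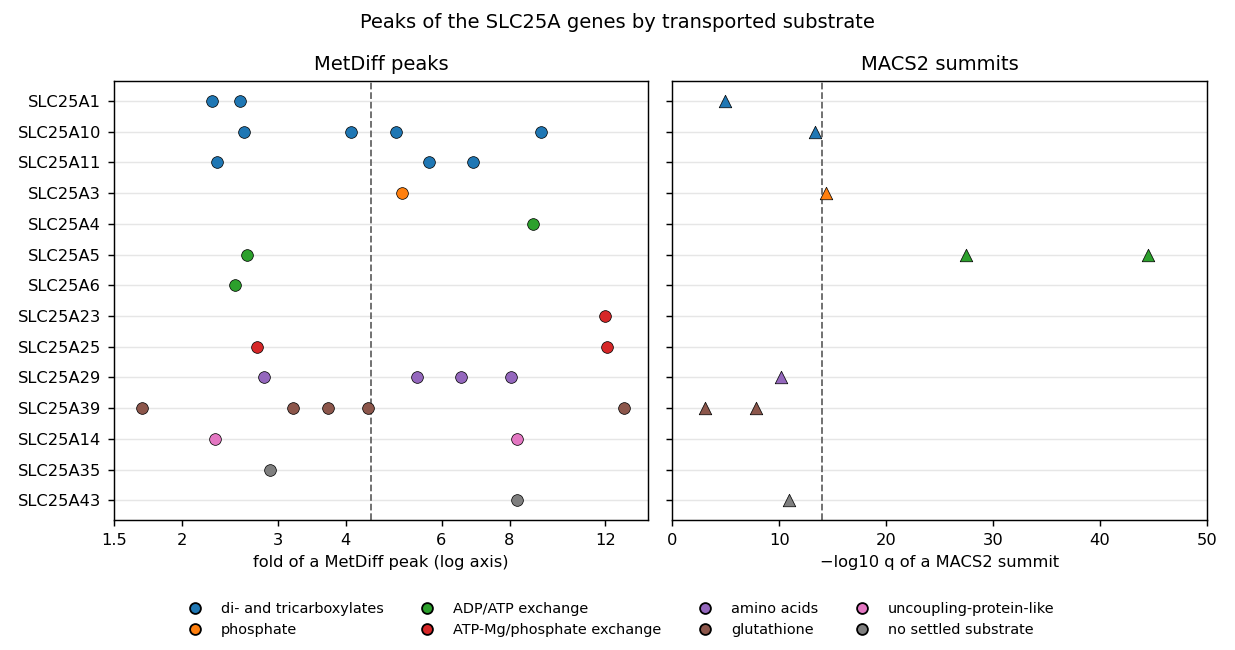
Each MetDiff peak of a carrier by its fold (left, log axis) and each summit by its −log10 q (right), with 1 row per gene, coloured by substrate; dashed lines mark the medians of all such peaks, 4.46 and 14. SLC25A39, SLC25A25 and SLC25A23 reach folds of 12 to 13, while the strongest summits, 44.5 and 27.5, lie in SLC25A5, whose only MetDiff peak has a fold of 2.64.

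Among the carboxylate carriers, SLC25A10, which exchanges malate or succinate for phosphate, had the highest fold. Its peak on chromosome 17 from 81714968 to 81715521, over 2 exon blocks, had a fold of 9.15 (FDR 1.55e-02), and a peak at the 5′ end, from 81712335 to 81712434, one of 4.10 (FDR 1.62e-02). A second Ensembl gene ID in the same span carried peaks with folds of 4.94 (81715003 to 81715506, FDR 9.12e-03) and 2.60 (81715705 to 81716831, FDR 2.82e-02). All 99 bases of the former also lay in the peak of 9.15, so the 2 IDs gave one stretch of exon different folds and SLC25A10 has fewer separate sites than its 4 peaks. A summit of 13.3 at 81714884 lay 84 bases from the nearest exon block. With peaks limited to an FDR under 0.01, the peak of 9.15 drops out. The highest fold of the class is then 6.86, in SLC25A11.

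SLC25A11, the oxoglutarate-malate carrier of the malate-aspartate shuttle, had 3 peaks on chromosome 17. The fold was 6.86 at the 5′ end (4939855 to 4940004, FDR 9.33e-06), 5.69 in the next peak (4939065 to 4939213, FDR 1.41e-05) and 2.32 in the one nearest the 3′ end (4937871 to 4938175, FDR 1.35e-05). It had no summit. SLC25A1, which exports citrate for lipid synthesis, had folds of 2.27 (chromosome 22, 19177732 to 19177832, FDR 3.98e-03) and 2.56 (19178182 to 19178281, FDR 2.45e-02). Its summit of 4.95 at 19177872 lay 40 bases from the former peak, and 95.0% of genes with a summit had one at least as strong. Both lists thus placed SLC25A1 near their lower ends. SLC25A21, the oxoadipate carrier, had neither kind of peak.

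The ADP/ATP carriers differed among themselves and between the lists. SLC25A4 (ANT1), the main form of heart and muscle, had 1 peak with a fold of 8.85 (chromosome 4, 185143465 to 185144844, over 2 exon blocks, FDR 4.17e-05) and no summit. SLC25A5 (ANT2), the form of growing cells, had a fold of only 2.64 near its 3′ end (chromosome X, 119470959 to 119471056, FDR 8.51e-04). It also had the strongest summits of the family, 44.5 at 119469679 and 27.5 at 119470853. A summit of at least 44.5 was found in 7.19% of the 1655 genes with a summit, while 91.2% of genes with a MetDiff peak had a highest fold of at least 2.64. The 2 measures thus ranked SLC25A5 at opposite ends. They are unlike, since a −log10 q is a significance and not a fold, so the ranks need not match. In genome coordinates, introns included, its stronger summit lay 1280 bases from the nearest MetDiff block, and the other one 106 bases away.

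SLC25A6 (ANT3) had a fold of 2.51 (chromosome X, 1386734 to 1387398, FDR 3.39e-05) and no summit. It lies in the region shared by the X and Y chromosomes, so reads of both copies cannot be told apart. SLC25A31 (ANT4), the form of the germ line, had neither kind of peak. The SLC25A5 and SLC25A6 genes have 9 and 6 pseudogenes in the RefSeq table, and SLC25A3 and SLC25A1 have 3 and 5. None of the 43 SLC25A pseudogenes overlapped a MetDiff peak or summit, and whether reads were shared with such copies was not tested. Among the other carriers with a peak, SLC25A39 has 2 pseudogenes and SLC25A14 has 1.

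SLC25A3, which imports the phosphate used for ATP synthesis, had a peak with a fold of 5.08 at its 5′ end (chromosome 12, 98593791 to 98593891, FDR 1.91e-04). Its summit of 14.4 lay at 98601170, 7279 bases away in genome coordinates, the longest such distance between the lists in the family. Introns count in this distance, and the distance along the spliced RNA was not analysed. Of the carriers that exchange ATP-Mg for phosphate, SLC25A25 and SLC25A23 had folds of 12.1 and 12. The SLC25A25 peak lay near the 3′ end (chromosome 9, 128107999 to 128108098, FDR 1.45e-03), and a second peak of 2.75 near the 5′ end (128068450 to 128068550, FDR 2.57e-02). The only SLC25A23 peak lay at the 5′ end (chromosome 19, 6459524 to 6459723, FDR 4.68e-06). Folds of this size were reached by 14.6% and 15% of genes with a peak, so both stood in the upper part of the list, yet neither gene had a summit. SLC25A24 and SLC25A41, the other genes of this class, had neither.

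SLC25A39, which takes up glutathione, the main thiol antioxidant, had the most peaks (5), the most covered exon (898 bases, a length reached by 4.50% of genes with a peak) and the highest fold of the family. That fold was 13 in a peak that began 3 bases from the 5′ end of the span (chromosome 17, 44324522 to 44324820, FDR 2.63e-10), and 11.9% of genes with a peak reached it. A summit of 7.81 at 44324769 lay inside this peak. The other folds were 3.20 (44324126 to 44324324), 4.4 (44321031 to 44321180), 3.71 (44320250 to 44320683) and 1.69 (44319973 to 44320072), the last being the lowest of the family. Their FDR was 2.63e-10 for the first and 3.89e-06 for the other 3. A second summit, of 3.03 at 44320292, lay inside the peak of 3.71. SLC25A39 was the only carrier with a summit inside an exon block. Its paralog SLC25A40 had neither kind of peak.

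SLC25A29, a carrier of basic amino acids, had 4 peaks, among them the one with the lowest FDR of the family. The fold was 8.04 at the 5′ end (chromosome 14, 100305808 to 100306347, FDR 5.01e-14), 2.83 (100298845 to 100299074, FDR 7.08e-10), 6.52 (100293326 to 100293426, FDR 1.91e-09) and 5.40 (100292465 to 100292565, FDR 3.16e-09). A summit of 10.2 at 100306424, the place printed above, lay 20 bases from the gene's start and 77 bases from the nearest block. A further peak in the span (100280847 to 100280946, fold 7.82) is on the plus strand, opposite to SLC25A29, and lies in the span of YY1 as well, so it was not counted. The aspartate-glutamate carriers SLC25A12 and SLC25A13, the glutamate carriers SLC25A18 and SLC25A22, the ornithine carriers SLC25A2 and SLC25A15, SLC25A38 and SLC25A44 had no peak in either list.

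SLC25A14, one of 3 members similar to uncoupling proteins, had folds of 8.25 near its 3′ end (chromosome X, 130373164 to 130373262, FDR 9.12e-05) and 2.30 (130365520 to 130365668, FDR 2.00e-03), and no summit. SLC25A27 and SLC25A30 had neither. Among the 8 members without a settled substrate, SLC25A43 had a fold of 8.24 at its 5′ end (chromosome X, 119399485 to 119399585, FDR 6.61e-03) and a summit of 10.9 at 119399451, 34 bases away. SLC25A35 had a fold of 2.90 (chromosome 17, 8290617 to 8290879, FDR 5.13e-05). Another SLC25A35 peak of 3.00 (8289492 to 8289590) lay where RANGRF overlaps it and was left out, as was a peak of 3.25 on the opposite strand there (8289603 to 8289701). In the same way SLC25A45 had a peak of 7.88 (chromosome 11, 65376825 to 65376974, FDR 4.90e-05) inside the span of FRMD8. That peak is on the minus strand, as is SLC25A45, and counting it gave 15 carriers, against 19.4% of all genes under the same rule. SLC25A34, SLC25A46, SLC25A47, SLC25A48 and SLC25A53 had no peak.

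The carriers of cofactors, iron, pyrimidine nucleotides and acylcarnitine had no peak in either list. Among them are SLC25A16 and SLC25A42 (coenzyme A), SLC25A17 (the peroxisomal member), SLC25A26 (S-adenosylmethionine, the methyl donor for m1G), SLC25A32 (folate or FAD), SLC25A51 and SLC25A52 (NAD), the mitoferrins SLC25A28 and SLC25A37, the pyrimidine nucleotide carriers SLC25A33 and SLC25A36, and the acylcarnitine carrier SLC25A20. Whether these transcripts were too scarce to give a peak was not tested, since no expression value was used here.

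Many carrier peaks lay at the start of the gene. The peak with the highest fold lay within 300 bases of the 5′ end of the span in 7 of the 14 carriers with a peak (50.0%): SLC25A39, SLC25A11, SLC25A23, SLC25A29, SLC25A3, SLC25A43 and SLC25A4, at distances of 3, 42, 69, 97, 105, 149 and 199 bases. The share was 20.3% over all 3687 genes with a peak. In SLC25A23, SLC25A3, SLC25A43 and SLC25A4 this was the only peak, so no other peak was ranked below it. Among genes with 2 or more peaks, the highest lay within this limit in 3 of 7 carriers (42.9%). The same held for 322 of all 1947 such genes (16.5%). Counting any peak, 9 carriers (64.3%) had one there, with SLC25A10 and SLC25A25 in addition, against 28.2% of all. The count depends on the limit: within 100 bases it was 4 carriers (28.6%, against 14.5% of all). At the 3′ end only SLC25A14 had its highest peak within 300 bases (7.14%, against 5.21% of all). The limit of 300 bases was chosen after the positions were seen, and no test was made. The 7 carriers with their highest peak within 300 bases of the 5′ end had a median span of 12682 bases, introns included. The other 7 carriers with a peak had one of 7638. Over all genes the order was the opposite, with 24325 for the 750 genes with such a highest peak and 26987 for the other 2937. The carriers with a peak as a whole had shorter spans (median 8183.5 bases) than the 34 without one (39930.5) and than all genes with a peak (26554). The part of length in having a peak, or in the place of the peak, was not tested.

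**Figure D3:**
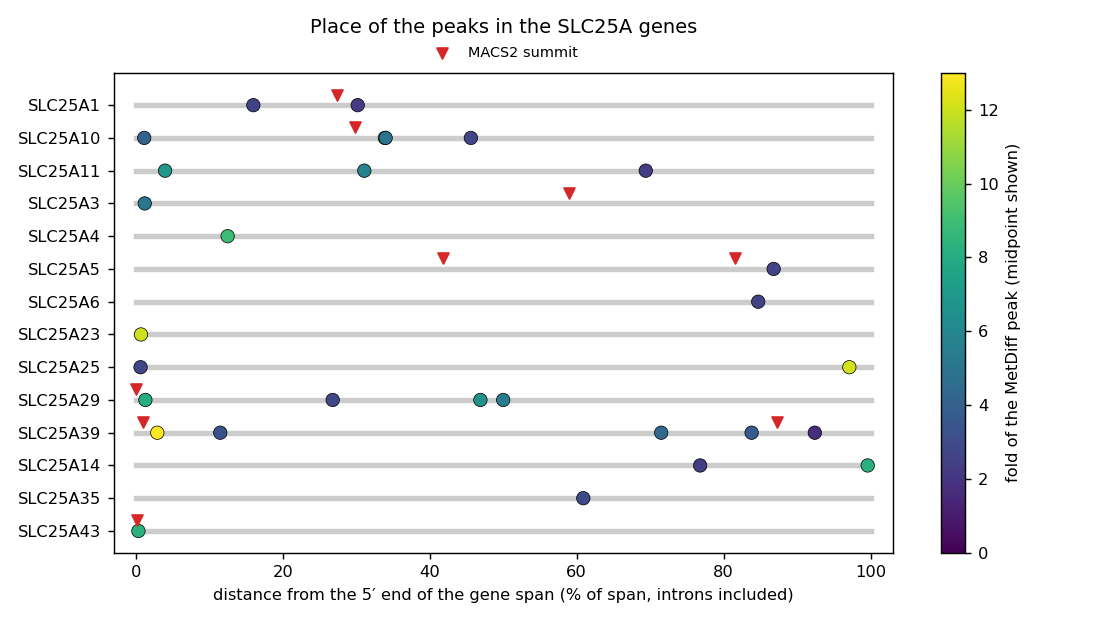
Midpoints of MetDiff peaks (circles, coloured by fold) and MACS2 summits (red triangles) along each gene span, from the 5′ end (0%) to the 3′ end (100%), introns included. The peaks of SLC25A39, SLC25A23, SLC25A29, SLC25A43 and SLC25A3 near 0% have folds between 5.08 and 13. Those of SLC25A10 and SLC25A25 near 0% have lower folds, 4.10 and 2.75. Toward the 3′ end, SLC25A25 and SLC25A14 have peaks with folds of 12.1 and 8.25. SLC25A5 and SLC25A6 have folds of 2.64 and 2.51 there, and the SLC25A39 peaks there have folds of 4.4 or less.

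The distances between summits and MetDiff peaks in the carriers were close to those in all genes. Of the 9 summits, 2 lay inside a MetDiff exon block (22.2%), against 18.8% of all summits with a sole protein-coding gene. Within 150 bases of a block in genome coordinates lay 7 of the 9 (77.8%, against 66.2% of all). The summit of SLC25A3 and the stronger one of SLC25A5 were farther away. Of the 29 MetDiff peaks, 11 covered more than 1 exon block (37.9%, against 33.8% of all). The strand of the peaks equalled that of the gene in 13 of 13 carriers whose strand the promoter table gives. Each MetDiff peak is listed under a gene ID, so its strand may be that of the annotated gene. The agreement is then no finding about the carriers.

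Genes that work with the carriers are given beside the shares of all protein-coding genes, which were 18.4% for MetDiff peaks and 8.25% for summits. Of 5 family members under other symbols, MTCH1, an outer membrane protein, had a MetDiff peak with a fold of 2.59 and a summit of 18.9, whereas UCP1, UCP2, UCP3 and MTCH2 had neither. Of 16 genes for the import of carriers, 7 had a MetDiff peak (43.8%) and 3 a summit (18.8%). AGK, a subunit of the TIM22 complex, had a fold of 13.9, its channel TIMM22 8.94, the receptor TOMM70 8.16 and the pore TOMM40 6.21, with TOMM22, TIMM10 and TIMM13 below these. TOMM22, TIMM10 and TOMM40 were those with a summit. Of 18 genes of other mitochondrial transport, a MetDiff peak was found in 7 (38.9%) and a summit in 1 (5.56%, below the share of all genes). The ABC transporter ABCB10 had a fold of 21.4 and that summit (8.84), ABCB6 a fold of 7.5, the sideroflexin SFXN4 6.81 and the cation exchanger LETM1 5.06, and VDAC1, VDAC3 and ABCB8 followed. The shares of the latter 2 lists with a MetDiff peak lay above that of the carriers, and no difference was tested.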

How the data were processed

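The members, the substrate classes and the gene lists were chosen with earlier results of these data known. Substrate classes follow textbook knowledge. Per the submitters' processing notes, reads were handled on GRCh38 with MACS2 2.2.5 and STAR 2.7.1 among the tools, whose roles and order are not stated. For the libraries behind the calls, and for any pooling, nothing is given in the sources used here.

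The deposited lists have no header. The deposited MACS2 list holds 3705 summits with a −log10 value (smallest 1.35, taken as −log10 q). The deposited MetDiff list holds 9585 peaks with p-values, log10 FDR values and a ratio of 1.0 to 61.5, taken as fold. Blocks were read as exons.

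Peaks were named with Python 3.11.15 and pandas 2.3.3, where exactly 1 RefSeq gene span of any biotype overlapped; 6 genes without a chromosome were left out. The naming was tested on simulated peaks. Coordinates count from 1. Distances run from the span's end to the nearest end of a peak, or from a summit to the nearest exon block. All are in genome coordinates, introns included. Shares rest on counts of genes, with no interval and no test. All carriers but 1, which is counted in the totals and not reported here, are named; of the other lists, all with a peak, and up to 4 each with values. Coding and untranslated positions were not analysed here.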

Additional observations from a re-analysis of the deposited data

How the results depend on the processing

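Of 21 alternatives over 7 results, 17 left the value within 1.5 times of the count (or within 1 SD, 2.81, of the median fold). The number of carriers with a MetDiff peak was 14 or 15 and with a summit 6 or 7 under the other naming rules and the stricter thresholds (FDR under 0.01, −log10 q of at least 5). Apart from the strand rule (19.4% of all genes), the shares of all genes under these settings are not given here. These counts therefore show only how the carrier counts moved, not how they compared with all genes. With the highest fold per gene, the median over carriers was 8.14 in place of 5.18, which follows from taking a maximum. Summits at an exon block numbered 7 within 150 bases, and 1 inside a block at −log10 q of at least 5, in place of 2. With a limit of 100 bases, chosen after seeing the data, 4 carriers (28.6%) had their highest peak at the 5′ end, against 14.5% of all genes with a peak. With 500 bases they were 8 (57.1%, against 23.4%).

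No paired analysis was possible because neither list holds a value per library. Leaving out replicates was not possible either. The depth behind each peak is unknown, so a carrier without a peak is one not found in these lists.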
